A study of Caenorhabditis elegans with 6 samples.

Results

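The astacins are a large family of zinc-dependent metalloproteases in the nematode Caenorhabditis elegans, most of them named nas for nematode astacin. Members were taken as the genes with the symbol nas and a number, together with dpy-31, toh-1 and hch-1, on array probe sets that the annotation gives to a lone gene. This found 36 of the 17118 genes so measured, on 43 of 22548 probe sets. The probe set for nas-2 is annotated to another gene as well and was left out. The study compared larvae in L3 lethargus, the quiet phase at the end of the third larval stage when the animal molts, with active larvae of that stage. The L3 lethargus group held 3 pools of wild-type N2 (Bristol) worms at 37 hours after the arrested L1 larvae were fed, chosen because they did not move or feed. The L3 group held 3 pools of the same strain at 32 hours, chosen for age and for active behaviour. All animals descended from hermaphrodite populations, were arrested after hatching without food, and were then grown at 20 °C on the bacterial strain DA837. Each pool held 200 hand-picked animals, and whole larvae were used, so fewer cells of a type and less RNA per cell cannot be told apart. Age, progress of the molt and behaviour differed together between the groups and cannot be told apart either.

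Astacins are secreted or membrane-bound enzymes that are made as inactive precursors and hold a catalytic zinc ion. In worms several act on extracellular coats: they trim collagens for the new cuticle, help the larva shed the old one at a molt, or open the eggshell. The pharynx, the muscular feeding organ, has a cuticle of its own, including a tooth-like grinder, that is replaced at every molt.

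Expression was read as log2 values, so a difference of 1 is a doubling. The median array value lay between 7.09 and 7.19 in the lethargus arrays and between 7.11 and 7.16 in the L3 arrays, and 0 pairs of arrays held identical values. Probe sets for Bacillus subtilis control transcripts, which worms do not carry, reached at most 5.73, and values up to that level are called the background band here. Levels of different genes are not compared, since each probe set has its own response. Lethargus was set against L3 by limma over all probe sets, with a gene called where its adjusted p did not exceed 0.05.

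In lethargus, nas-1, nas-27, toh-1, nas-5 and nas-30 rose, by amounts from 3.75-fold for nas-30 to at least 14.1-fold for nas-1. The remaining 31 members were not called, among them the molting proteases nas-36 and nas-37, the collagen-processing protease dpy-31 and the pharyngeal genes nas-6 and nas-7. Of 36 members, then, 5 rose and 0 fell by limma. Over all genes with 1 probe set each, 0.783% were called higher and 0.251% were called lower. At an unadjusted p under 0.05 from limma, 8 members were higher and 5 lower. The share of all genes at that unadjusted threshold was not counted, so such counts, here and below, have no comparison. The median log2 change was 0.16 over the members and 0.02 over all genes, with genes in the background band included in both. Of the 25 members with an array above the band, 16 had a positive estimate and 9 a negative one. The estimates of the other 11, of which 9 were positive, are not measured changes.

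**Figure D1:**
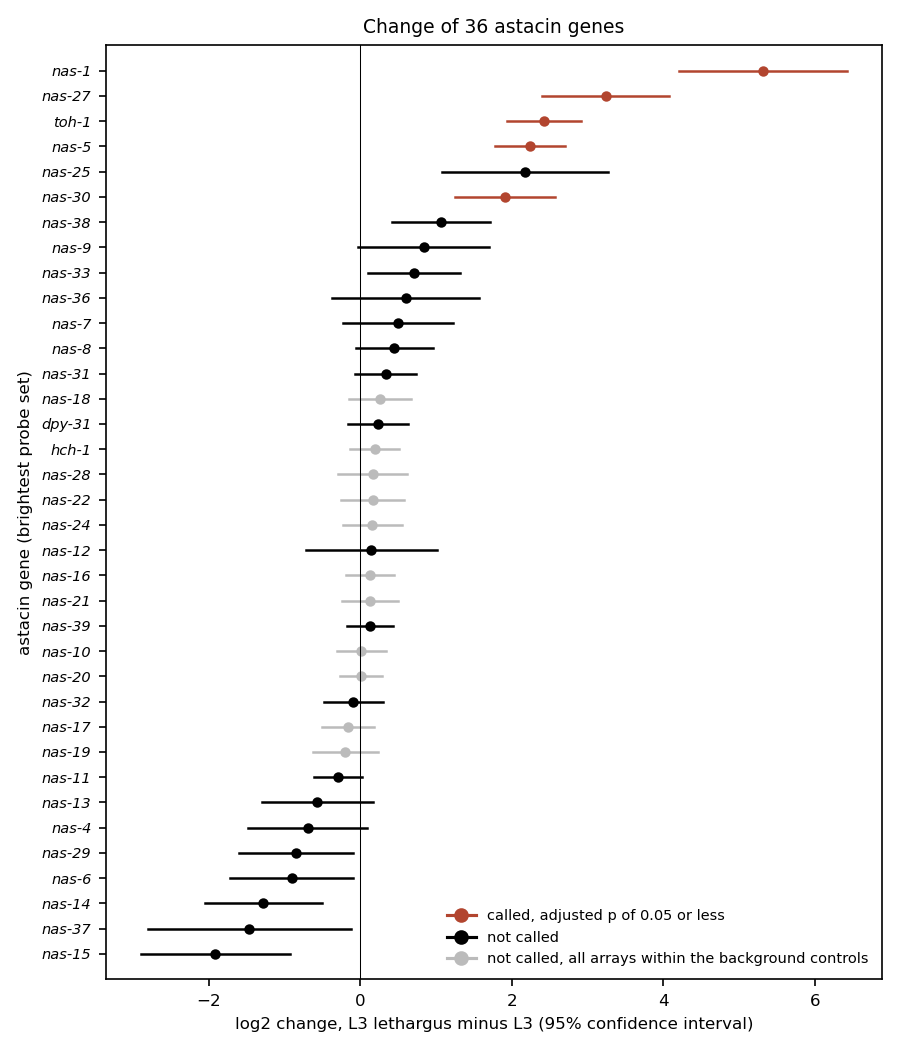
Log2 change (L3 lethargus minus L3) of the 36 astacin genes, each on its brightest probe set. Points are limma estimates and lines are 95% confidence intervals, in red for the 5 called genes, in black for genes not called, and in grey for the 11 genes whose arrays all lay in the background band. The called genes are all on the positive side, while the most negative estimates, those of nas-15 and nas-37, were not called.

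The family was unevenly detected. For 22 members all 6 arrays lay above the background band, for 11 all arrays lay inside it, and nas-1, nas-25 and nas-39 had arrays on both sides. The 11 were nas-10, nas-16, nas-17, nas-18, nas-19, nas-20, nas-21, nas-22, nas-24, nas-28 and hch-1. Their estimates lay between -0.19 and 0.26, and the smallest adjusted p among them from limma was 0.749. In the RefSeq gene order nas-18, nas-17 and nas-19 follow each other with 0 coding genes between them, and 1 coding gene separates nas-18 from nas-16. nas-20, nas-21 and nas-22 likewise follow each other with 0 coding genes between them. None of these 7 neighbouring genes showed a level above the band on any array. hch-1 encodes the hatching enzyme, which acts on the eggshell of the embryo. It had 4.804, 4.724 and 4.607 in lethargus, against 4.566, 4.674 and 4.318 in L3.

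The largest estimate was that of nas-1, for which no role is given here. Its log2 level was 9.722, 8.399 and 9.817 in the lethargus arrays, against 3.370, 4.803 and 3.824 in the L3 arrays. Every lethargus array was well clear of the background band and every L3 array was inside it. The fitted change was 5.31 (SE 0.47, adjusted p = 0.00329), but because the L3 mean of 4.00 ± 0.73 (SD, n = 3) was in the band the rise is stated as at least 14.1-fold. That bound sets the lethargus mean of 9.31 ± 0.79 (SD, n = 3) against the top control value of each array of the L3 group.

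nas-27 had the next largest change. It was at 10.31, 10.47 and 11.06 in lethargus, against 7.25, 8.13 and 6.75 in L3, with no overlap between the groups. The change was 3.24 (SE 0.36, adjusted p = 0.00881), or 9.45-fold. L3 replicate 3 was the lowest array for nas-27, and the rise was 7.60-fold without it. The call held in 2 of the 6 fits that left out an array and ended without L3 replicate 1 or any lethargus array, where the adjusted p was 0.0501 to 0.0525.

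toh-1, named for its likeness to the tolloid proteases, was measured on 3 probe sets that did not share a call. On the brightest, which can also match related transcripts, it was at 9.81, 9.74 and 10.48 in lethargus, against 7.51, 7.66 and 7.58 in L3. The L3 arrays were close together, with an SD of 0.08, and the lethargus arrays lay above all of them. The change was 2.43 (SE 0.21, adjusted p = 0.00299), or 5.38-fold. A dimmer probe set, not marked as matching related genes, was also called, at 9.62, 8.82 and 9.51 in lethargus, against 7.15, 7.40 and 7.12 in L3, a change of 2.09 (SE 0.22, adjusted p = 0.00757). That call ended without lethargus replicate 3 (adjusted p = 0.0510). The dimmest gave 6.27, 6.92 and 6.41 in lethargus, against 5.60, 6.32 and 5.95 in L3, close to the background band and with overlapping groups. It was not called, with a change of 0.58 (SE 0.24, adjusted p = 0.448).

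nas-5 was the steadiest of the called genes within lethargus. It was at 9.34, 9.41 and 9.30 there, against 6.84, 6.93 and 7.54 in L3. The groups did not overlap, and L3 replicate 3 was the highest of the L3 arrays. The change was 2.24 (SE 0.20, adjusted p = 0.00324), or 4.73-fold.

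nas-30 was at 10.73, 10.87 and 11.35 in lethargus, against 9.21, 9.52 and 8.50 in L3. Its groups did not overlap, and L3 replicate 3 was again the lowest array. The change was 1.91 (SE 0.28, adjusted p = 0.0323), or 3.75-fold, and it was 3.07-fold without that array. The call held in 1 of the 6 fits that left out an array, the one without L3 replicate 3 (adjusted p = 0.00647), and the highest adjusted p was 0.131. The calls of toh-1 on its brightest probe set, nas-5 and nas-1 held in all 6 of these fits, with highest adjusted p-values of 0.0229, 0.0314 and 0.0347.

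**Figure D2:**
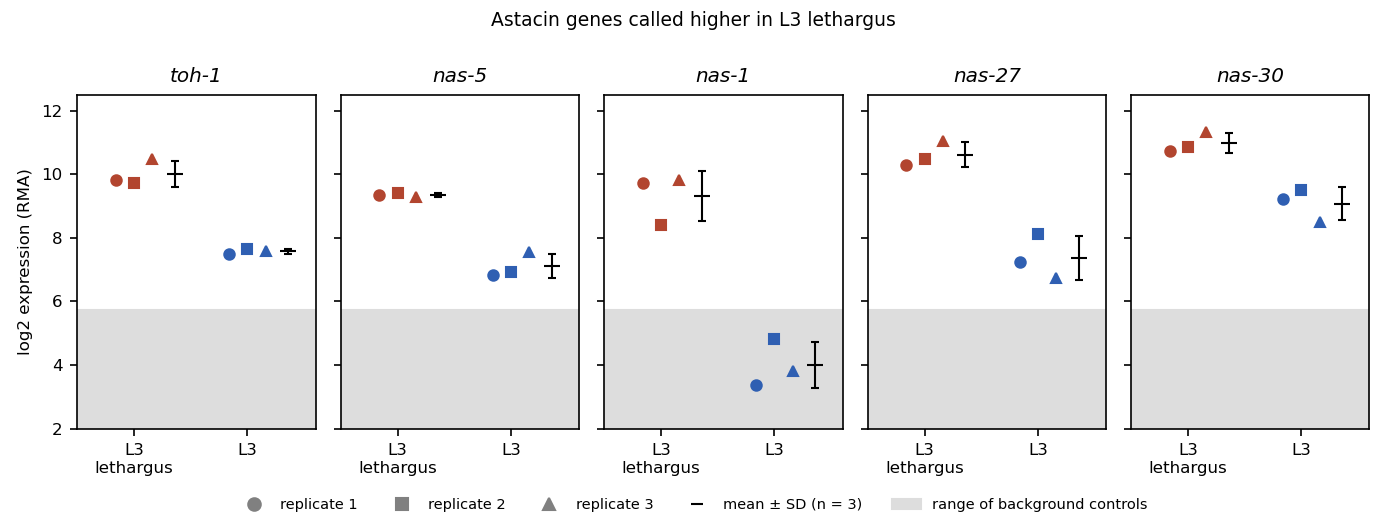
Log2 expression of the 5 called astacin genes on each array, with L3 lethargus left of L3. Marker shapes give the replicate, black marks give the mean ± SD of 3 arrays, and the grey band shows values up to the highest background control (5.73). Lethargus lies above L3 on every array for all 5 genes, and the L3 arrays of nas-1 lie inside the band.

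Among the astacins assigned here to the epidermis, which makes the body cuticle, 0 of 4 were called by limma. At an unadjusted p under 0.05, 1 was higher and 1 lower. dpy-31 encodes the protease that removes the C-terminal end of a procollagen before it is built into the cuticle. It was at 11.23, 11.22 and 11.76 in lethargus, against 11.20, 11.13 and 11.18 in L3. The groups did not overlap, but apart from lethargus replicate 3 the arrays were nearly level. The change was 0.24, with a 95% confidence interval from -0.17 to 0.64 (adjusted p = 0.793). The 2 dimmer probe sets of dpy-31 had changes of 0.14 and 0.01.

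nas-36 and nas-37 are needed in the worm to shed the old cuticle at the end of a molt. Their probe sets, and the brightest of dpy-31, can also match related transcripts, as can those of nas-15, nas-9 and hch-1. nas-37 was at 7.49, 7.42 and 9.22 in lethargus, against 10.02, 9.96 and 8.55 in L3. Lethargus replicate 3 stood above L3 replicate 3, while the other arrays of the groups were more than 2 log2 units apart. The change was -1.46 (SE 0.57, 95% confidence interval from -2.80 to -0.12, adjusted p = 0.415). Without L3 replicate 3 it was -1.94 and still not called (adjusted p = 0.0809).

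nas-36 was at 8.91, 8.10 and 8.93 in lethargus, against 8.72, 8.27 and 7.14 in L3. The groups overlapped, and L3 replicate 3 was the lowest array. The change was 0.60 (95% confidence interval from -0.37 to 1.57, adjusted p = 0.769), and it was 0.15 without L3 replicate 3. The difference between the changes of nas-36 and nas-37 was not tested.

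nas-38, an epidermal astacin known to affect the amount of sleep-like quiescence during lethargus, was at 9.47, 9.54 and 9.57 in lethargus, against 8.80, 8.82 and 7.78 in L3. The lethargus arrays agreed closely and lay above every L3 array. The change was 1.06 (SE 0.28, 95% confidence interval from 0.41 to 1.71), with an adjusted p of 0.174 that missed the threshold. Without L3 replicate 3 the change was smaller, at 0.72, and was called (adjusted p = 0.0304).

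The astacins assigned to the pharynx here, nas-6 and nas-7, were not called either, with 0 of 2 called by limma and 1 lower at an unadjusted p under 0.05. The called genes nas-1, nas-5, nas-27 and nas-30 had no role assigned, so this does not cover every astacin that may act in the pharynx. nas-6, needed for a normal grinder, was at 8.39, 8.26 and 8.82 in lethargus, against 9.83, 9.78 and 8.57 in L3. L3 replicate 3 lay among the lethargus arrays, and the other L3 arrays lay above all of them. The change was -0.90 (SE 0.35, adjusted p = 0.402), and without L3 replicate 3 it was -1.31 and called lower (adjusted p = 0.00978). nas-7, which is expressed in the pharynx, was at 11.06, 10.69 and 10.72 in lethargus, against 10.67, 10.73 and 9.58 in L3. Leaving aside L3 replicate 3, its arrays differed little. The change was 0.50 (95% confidence interval from -0.23 to 1.22, adjusted p = 0.725), and 0.12 without that array.

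Of the members related to tolloid, nas-39 encodes the worm protease closest to vertebrate BMP1 and tolloid. It was at 5.95, 5.87 and 5.91 in lethargus, against 5.78, 5.95 and 5.63 in L3, at the edge of the background band, and its change was 0.13 (adjusted p = 0.891). No member was assigned to the gut, for want of a gut role that was known with certainty.

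**Figure D3:**
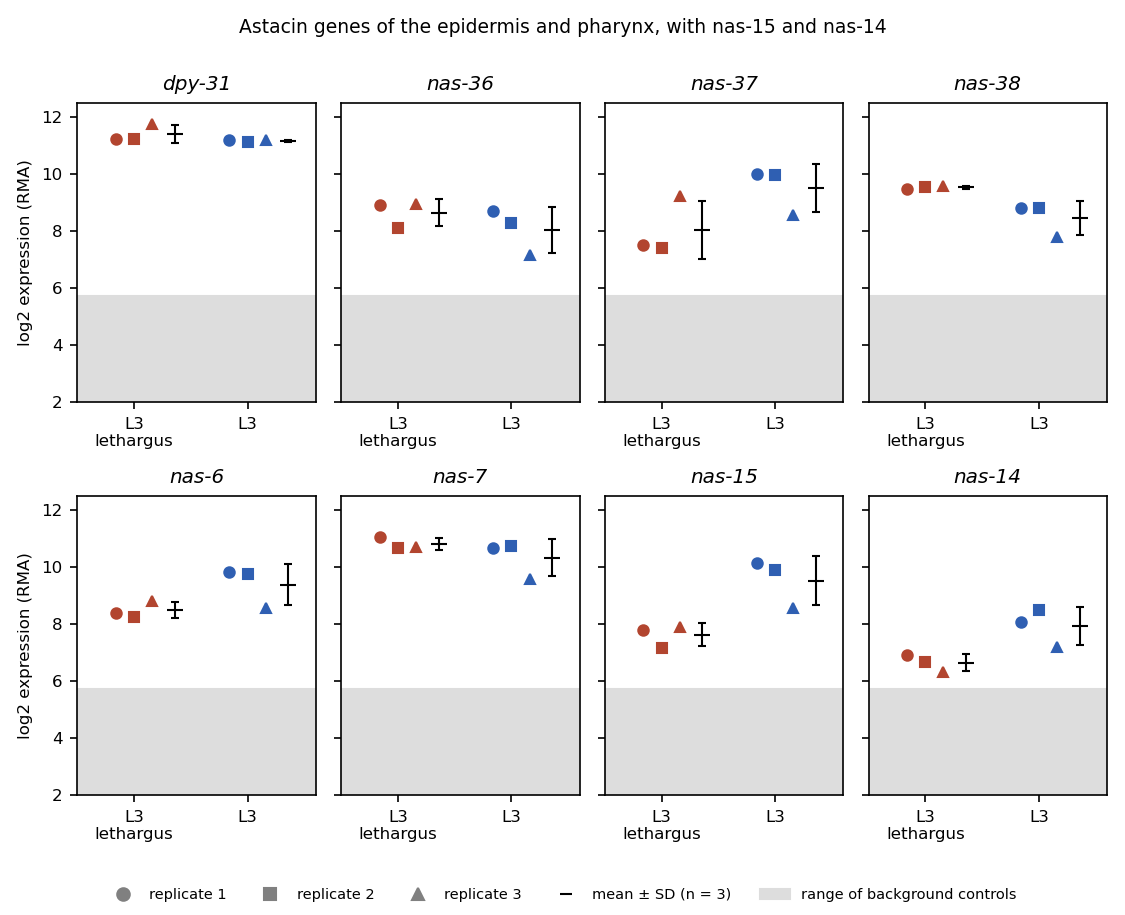
Log2 expression on each array of the epidermal genes dpy-31, nas-36, nas-37 and nas-38, the pharyngeal genes nas-6 and nas-7, and nas-15 and nas-14, with L3 lethargus left of L3. Marker shapes give the replicate, black marks the mean ± SD of 3 arrays, and the grey band values up to 5.73. L3 replicate 3 (blue triangle) is the lowest L3 array for every gene shown except dpy-31.

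The uncalled members without an assigned role that had the smallest p-values are given next. nas-15 was at 7.79, 7.16 and 7.92 in lethargus, against 10.15, 9.89 and 8.55 in L3. The lethargus arrays lay below all L3 arrays, with L3 replicate 3 in between. The change was -1.91 (SE 0.42, adjusted p = 0.107). nas-14 was at 6.93, 6.69 and 6.33 in lethargus, against 8.08, 8.50 and 7.199 in L3, a change of -1.28 (SE 0.33, adjusted p = 0.168) with the same order of arrays. Without L3 replicate 3 both were called lower, with adjusted p-values of 0.00208 and 0.00654.

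nas-25 was at 6.76, 6.95 and 5.02 in lethargus, against 4.00, 3.98 and 4.23 in L3. Lethargus replicate 3 was inside the background band, as was every L3 array, while the other lethargus arrays were above it. Against the top control value of each L3 array, the lethargus mean of 6.24 ± 1.06 (SD, n = 3) was at least 1.68-fold higher. This bound holds for the mean only, since lethargus replicate 3 lay below all of those control values. The limma fit gave no call (adjusted p = 0.104). nas-25 was called higher without lethargus replicate 3 (adjusted p = 0.00259) and with array weights (adjusted p = 0.0335).

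nas-33 was at 8.031, 8.347 and 7.995 in lethargus, against 7.069, 7.163 and 8.002 in L3, and L3 replicate 3 lay at the level of lethargus. The change was 0.71 (adjusted p = 0.361), and 1.01 without that array (adjusted p = 0.0156). nas-29 was at 8.20, 7.72 and 8.45 in lethargus, against 9.52, 9.09 and 8.32 in L3, where again L3 replicate 3 lay among the lethargus arrays. The change was -0.85 (adjusted p = 0.390), and -1.18 without that array (adjusted p = 0.0357). The 8 remaining members with an array above the background band, nas-4, nas-8, nas-9, nas-11, nas-12, nas-13, nas-31 and nas-32, had changes between -0.69 and 0.84 and adjusted p-values between 0.498 and 0.973.

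Counting arrays alone, the lowest lethargus array exceeded the highest L3 array for 9 of 36 members, against 8.18% of all genes. These were the 5 called genes with nas-25, nas-38, nas-8 and dpy-31. The highest lethargus array was below the lowest L3 array for 3 members, nas-15, nas-14 and nas-11, against 6.44% of all genes.

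L3 replicate 3 differed from the other L3 arrays across much of the family, and the following describes those values without a test. Of the 25 members with an array above the background band, 14 were lower on L3 replicate 3 than the mean of L3 replicates 1 and 2 by more than 0.5, and 3 were higher by more than 0.5. Of the 11353 genes with an array above the band, 9.95% were lower by that much and 9.92% were higher. The other L3 arrays differed from each other by more than 0.5 for 3 of the 25 members, nas-1, nas-27 and nas-31. The 14 lower members had differences from -1.47 for nas-15 to -0.68 for nas-8, and nas-5, nas-33 and nas-9 were the 3 higher ones.

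**Figure D4:**
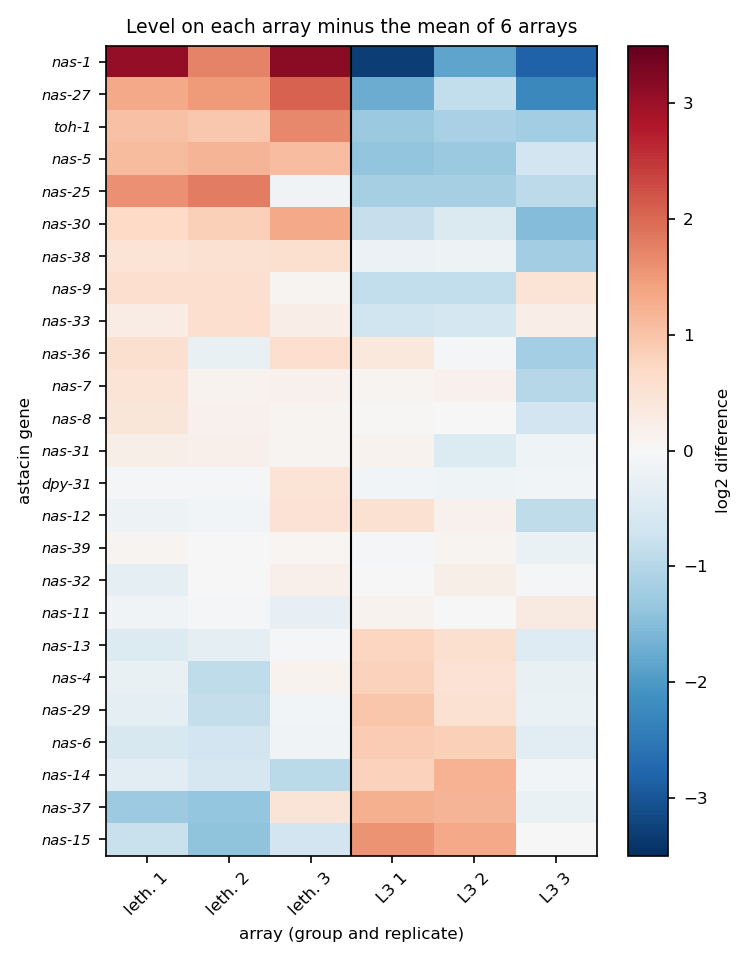
Log2 level of the 25 astacin genes with an array above the background band, on each array, minus that gene's mean over the 6 arrays. Columns are the 3 lethargus arrays, then the 3 L3 arrays, and genes are ordered by change. L3 replicate 3 is bluer than the other L3 arrays for nas-36, nas-7 and nas-12, and it differs from them by more than 0.5 for 17 genes of the 25 (14 lower, 3 higher).

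Some members were at lethargus-like values on L3 replicate 3 and others were not. nas-6 lay -1.24 from the other L3 arrays on L3 replicate 3, while the mean of lethargus lay -1.31 from them. nas-4 had -0.911 on L3 replicate 3 and -0.996 in lethargus. nas-9 had 1.34 on L3 replicate 3 and 1.28 in lethargus. For these genes L3 replicate 3 and lethargus were within 0.1 of each other. The genes that rose did not share this: nas-27 had -0.94 on L3 replicate 3 and 2.93 in lethargus, and nas-30 had -0.86 and 1.62 in the same order. nas-5 lay part of the way towards lethargus, with 0.66 on L3 replicate 3 and 2.46 in lethargus. Among genes not called, nas-33, nas-29 and nas-13 were also near lethargus. They had 0.89, -0.99 and -1.12 on L3 replicate 3, against 1.01, -1.18 and -0.94 in lethargus. nas-38 had -1.03 on L3 replicate 3 and 0.72 in lethargus. toh-1 lay within 0.01 of the other L3 arrays on L3 replicate 3 and at 2.42 in lethargus. Of the 14 members that were lower on L3 replicate 3, the lethargus mean was below the other L3 arrays for 8 and above them for 6. nas-4, nas-9 and nas-13 were chosen for these sentences after their values were seen.

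**Figure D5:**
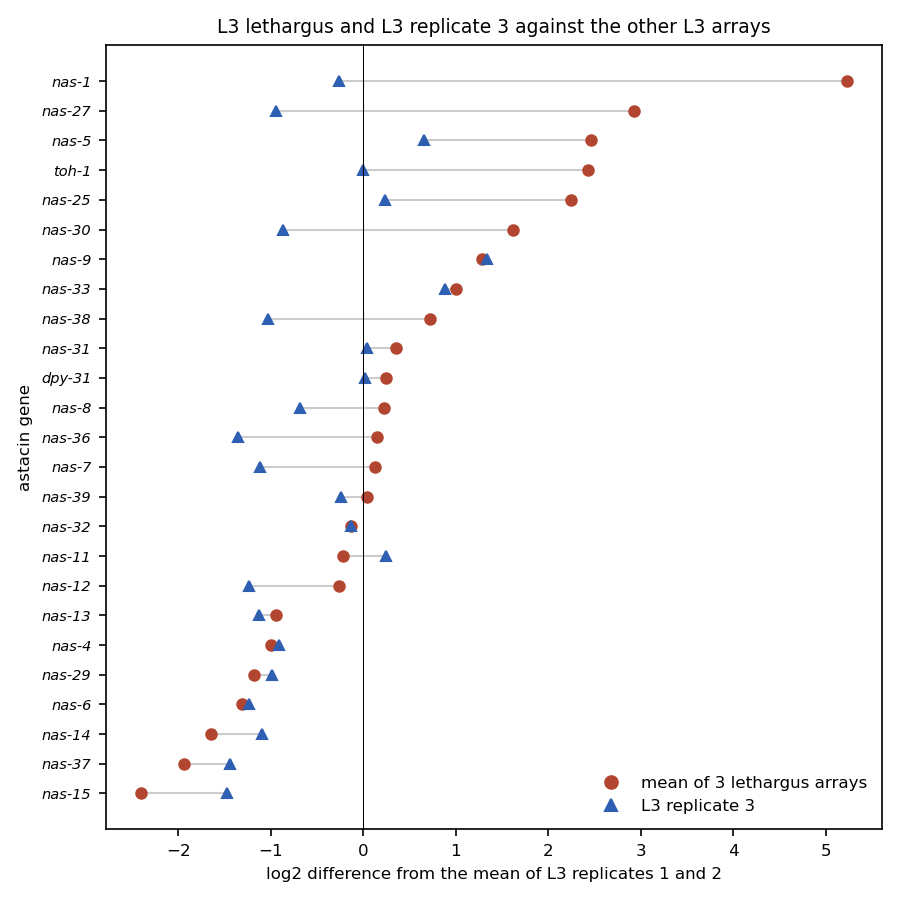
Mean of the 3 lethargus arrays (red circles) and L3 replicate 3 (blue triangles), each as a log2 difference from the mean of L3 replicates 1 and 2, for the 25 astacin genes with an array above the background band. The symbols nearly coincide for nas-9, nas-4 and nas-6, and lie far apart for nas-1, nas-27, toh-1 and nas-30.

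Leaving out L3 replicate 3 raised the counts to 8 members called higher and 5 called lower by limma, against 2.66% and 2.59% of all genes. The 5 members called on 6 arrays were all called again, and nas-38, nas-33 and nas-9 joined them as higher. The 5 called lower were nas-15, nas-14, nas-29, nas-6 and nas-13. nas-9 and nas-13, named here after their values were seen, had changes of 1.28 (adjusted p = 0.0108) and -0.94 (adjusted p = 0.0253) in that fit. A dimmer probe set of nas-9 had 1.10 there and was not called (adjusted p = 0.0641).

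Markers of germline and sperm also set L3 replicate 3 apart. Of 15 measured, 14 were higher there than the mean of L3 replicates 1 and 2, and the median difference per gene was 0.81. The median level over the 15 was 8.66 on L3 replicate 3, against 6.41 and 6.26 on L3 replicates 1 and 2. These medians fall on different genes, so their gap is not the change of a marker. The shifts were uneven. msp-76 was at 5.55, 4.90 and 8.66 on L3 replicates 1 to 3, and the germline gene glh-1 at 11.98, 11.75 and 12.01. Both were chosen after their values were seen. The msp genes among the 15 were read on probe sets that can match related genes. The lethargus arrays had medians of 6.41, 7.75 and 7.49, so by this median lethargus replicates 2 and 3 also lay above the other L3 arrays. spe-11, spe-12 and ssp-10 stayed in the background band on all arrays. Marker levels were also summed on the linear scale and the sum put back to log2, which gives most weight to the brightest probe sets. The summed level was 13.23 to 13.35 in lethargus and 12.88 to 13.42 in L3. The part of these transcripts in the astacin values was not tested.

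Tissue markers were compared over the same arrays. Of 17 markers of pharyngeal muscle and gland, 16 had a positive change, with a median of 0.41, 0 called higher and 1, hlh-6, called lower, and eat-2 was in the background band. The call of hlh-6, a gland transcription factor gene with a change of -1.27, ended when any array but L3 replicate 3 was left out (adjusted p = 0.0594 to 0.113). At an unadjusted p under 0.05, 5 of the pharyngeal markers were higher and 1 was lower. The level of the 17, summed on the linear scale and put back to log2 as above, was 13.80 to 13.86 in lethargus and 13.41 to 13.50 in L3. Of 15 seam and epidermis markers 8 had a positive change, with a summed level of 15.08 to 15.22 in lethargus and 15.18 to 15.34 in L3. Of 23 gut markers and digestive proteases 11 had a positive change, with cpr-2 and vit-2 in the background band and a summed level of 16.43 to 16.54 in lethargus and 16.51 to 16.61 in L3. Their part in the astacin changes was not tested. Of these epidermal and gut markers 0 were called by limma, with 4 epidermal ones higher and 4 lower, and 0 gut ones higher and 3 lower, at an unadjusted p under 0.05. In the fit without L3 replicate 3, 1 pharyngeal marker was called higher and 1 lower, 1 epidermal marker higher and 1 lower, and 0 gut markers higher and 1 lower.

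Genes that work beside the astacins were read from the same fit. Among 18 genes of procollagen processing and cross-linking, 1 rose and 1 fell, against 0.783% and 0.251% of all genes. The median change of the 18 was -0.29, with 1 higher and 7 lower at an unadjusted p under 0.05. phy-3 lay in the background band. The peroxidase gene mlt-7 rose by 1.78 (SE 0.20, adjusted p = 0.00869), and the collagen gene rol-6 fell by 1.05 (SE 0.18, adjusted p = 0.0488). The call of rol-6 ended when any array but L3 replicate 3 was left out (adjusted p = 0.111 to 0.234). That of mlt-7 ended without L3 replicate 2 and without lethargus replicate 1 or 3 (at most 0.0558). Without L3 replicate 3, 1 of these 18 genes was called higher and 4 were called lower, against 2.66% and 2.59% of all genes. rol-6 was at 12.60, 12.22 and 12.66 in lethargus, against 13.75, 13.58 and 13.31 in L3. The collagen gene sqt-3, a known substrate of dpy-31, was at 13.24, 13.47 and 13.30 in lethargus, against 13.93, 13.88 and 13.59 in L3. Its arrays did not overlap, but the change of -0.47 was not called (adjusted p = 0.257). bli-4, which encodes the protease that trims the other end of procollagens, had a change of 0.04 on its brightest probe set (adjusted p = 0.987). The probe sets read for sqt-3, bli-4 and mlt-7 can also match related genes. So can those of mlt-9, mlt-11, nhr-23, nep-1 and nlp-29, which are given below.

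Of 21 further molting genes, 0 rose and 3 fell, against 0.783% and 0.251% of all genes. The median change of the 21 was -0.62, and 4 changes were positive. At an unadjusted p under 0.05, 0 were higher and 13 lower. Those that fell were mlt-10 with -2.67, the transcription factor gene bed-3 with -2.54 and mlt-9 with -2.21, with adjusted p-values of 0.0421, 0.0379 and 0.0388 from limma. These 3 calls also ended when any array but L3 replicate 3 was left out, with adjusted p-values from 0.0854 to 0.212. Without L3 replicate 3 the count was 0 higher and 5 lower, against 2.66% and 2.59% of all genes. grh-1, counted among the 13 and the 5, lay in the background band on all arrays. Its limma call without L3 replicate 3 (adjusted p = 0.0442) is therefore not a measured change. bli-5 and mlt-11, which encode Kunitz-type protease inhibitors of the cuticle, were not called, with changes of 0.07 and -0.64 (adjusted p = 0.986 and 0.573). The nuclear receptor gene nhr-23, a driver of molting genes, had a change of 0.11 (adjusted p = 0.953).

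Other secreted or membrane zinc proteases and their inhibitors were also examined. Of 24 measured, among them the zmp, adt and nep genes, 0 were called by limma, and 1 was higher and 1 lower at an unadjusted p under 0.05. Their median change was -0.12, and gon-1 lay in the background band. The neprilysin gene nep-1, chosen after its values were seen, was at 8.74, 8.09 and 8.74 in lethargus, against 11.28, 11.19 and 9.67 in L3. Its arrays did not overlap and its change of -2.19 was not called (adjusted p = 0.0816), but without L3 replicate 3 it was called lower (adjusted p = 0.000986). timp-1, a tissue inhibitor of metalloproteases, was at 5.65, 6.13 and 6.44 in lethargus, against 6.41, 6.51 and 6.60 in L3, a change of -0.44 (adjusted p = 0.550).

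The pharyngeal lining genes, set beside nas-6 and nas-7, comprised 19 measured members. Of these, 8 rose and 1 fell, against 0.783% and 0.251% of all genes, with a median change of 1.28. From limma, 12 were higher and 4 lower at an unadjusted p under 0.05. abu-2 and abu-3 lay in the background band. Among those that rose, every abu gene except abu-10 was read on a probe set that can match related genes. abu-15, abu-6 and abu-8 had lethargus means of 12.61, 12.59 and 12.24, against 7.04, 7.38 and 7.24 in L3. abu-10, pqn-71 and pqn-54 rose on probe sets not marked as matching related genes. Their lethargus means were 12.12, 10.45 and 11.25, against 6.71, 4.93 and 8.49 in L3, where pqn-71 was in the background band. Shared signal was not tested, so the 8 are not shown to be separate readings. Without L3 replicate 3, 10 of the 19 were called higher and 4 lower, against 2.66% and 2.59% of all genes. Without lethargus replicate 1 or lethargus replicate 3, 5 were called higher and 0 lower. With any of the other arrays left out, 6 to 8 were called higher and 0 or 1 lower. On L3 replicate 3, 17 of the 19 were below the mean of L3 replicates 1 and 2, and the median difference was -1.23. For comparison, nas-6 and nas-7 had -1.24 and -1.12 there. Among the astacins the drop was not particular to the pharynx: of the 4 epidermal astacins 3 were lower there, with a median difference of -1.19. Markers of these tissues did not share a drop of that size. Of 17 pharyngeal muscle and gland markers, 11 were higher on L3 replicate 3 and 6 lower, with a median difference of 0.12. Of 15 seam and epidermis markers, 6 were higher and 9 lower, with a median difference of -0.17.

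The epidermal antimicrobial peptide and signalling genes, a group known to act with nas-38, were not called. The change was positive for 14 of 18 measured genes, with a median of 0.23, 0 called by limma, and 4 higher and 1 lower at an unadjusted p under 0.05. When L3 replicate 3 was left out, 1 was called higher and 1 lower, against 2.66% and 2.59% of all genes. cnc-1, cnc-5 and cnc-6 lay in the background band. nlp-29, an antimicrobial peptide gene of the epidermis, was at 13.09, 12.86 and 12.72 in lethargus, against 12.34, 12.45 and 12.74 in L3, with a change of 0.38 (adjusted p = 0.460).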

How the data were processed

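Total RNA of 3 pools per stage was amplified (Nugen Ovation) and hybridized to the Affymetrix C. elegans Genome Array, per the labels' protocols. The deposited values are log2 expression made by the authors with RMA, per the submitters' processing notes. For RMA, version and settings were not given in the sources used here. Amplification and RMA can compress changes near background. Per the labels' protocols, 1 further pool of each stage was set aside for RNA quality. The labels do not say whether pools were grown separately, so p-values reflect pool-to-pool spread, which may be technical.

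Of 22625 probe sets, 77 controls were left out. Limma 3.58.1 in R 4.3.3 (lmFit, eBayes, group as the only term) was run on the remaining 22548, with Benjamini-Hochberg adjustment over all of them. The program named in the design text, R/maanova, was not run. A gene was represented by its brightest probe set, judged on the mean of all 6 arrays. Symbols come from the array annotation, and all 36 members matched RefSeq (WBcel235) by gene identifier. The background band ends at the highest of 27 Bacillus subtilis control probe sets. The fit was tested on simulated data.

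The members and gene lists were chosen with earlier results of these data known. Named with full values were members called on any probe set, members with a known role, and the 6 uncalled members with the smallest p. From the other lists, called genes could be named. Outside that rule, sqt-3, bli-4, bli-5, mlt-11, nhr-23, grh-1, nep-1, timp-1, nlp-29, msp-76 and glh-1 were named. Alternatives covered normalization, dim probe sets, variance model, array weights, the replicate block, the choice of probe set and each array left out. Background correction and scan date could not be varied, since only RMA values were used. The number of arrays limits precision.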

Additional observations from a re-analysis of the deposited data

How the results depend on the processing

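The 5 members called higher and 0 called lower were found again with a second quantile normalization, a common median, the dimmest 30% of probe sets left out, a variance trend with robust fitting, the mean of all probe sets of a gene, and without probe sets that can match related genes (31 members left). Array weights gave 6 higher and 1 lower among the members, and 262 higher and 231 lower over the array, against 170 and 48. The variance trend gave 77 lower over the array. With an array left out, members called higher numbered 3 to 8 and lower 0 to 5, and probe sets over the array numbered 75 to 573 higher and 0 to 563 lower. Each upper end came without L3 replicate 3.

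With the replicate number as a block, 2 members were called higher (toh-1 and nas-5) and 0 lower, and 56 probe sets were higher and 3 lower. nas-1, nas-27 and nas-30 had adjusted p-values of 0.0718, 0.0908 and 0.185 in that fit. Deviations of same-numbered arrays correlated at 0.264, -0.244 and -0.293. With deviations taken within groups of 3 arrays, these values cannot decide whether same-numbered arrays shared more than a number. Of 233 alternative values of the 18 genes named with full values, 212 stayed on the same side of the threshold, 12 lost a call, 9 gained one, and 0 turned direction. Genes in the background band, 11 of 36 here, have no measured change.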
